A study of Mus musculus with 4 samples.

Results

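The bone morphogenetic protein (BMP) pathway was followed in cardiac progenitor cells (CPCs) through 10 genes, which were the ligand genes Bmp2, Bmp4, Bmp5, Bmp7 and Bmp10, the receptor genes Bmpr1a and Bmpr2, and the inhibitor genes Smad6, Smad7 and Bambi. They were chosen by gene name from the 20701 gene symbols of the transcript table, with earlier results of these data known. For each gene the transcript row with the highest mean of RPKM multiplied by length was kept. All 10 were found and all 10 passed the filter on low values, a mean of at least 0.5 RPKM (reads scaled to transcript length and to the library's counted reads). Only Bmp4 had more than 1 row, 2 transcripts with near-equal values.

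RNA was sequenced on day 5 of differentiation from 2 Baf60c KD libraries and 2 control libraries. Baf60c KD cells came from mouse embryonic stem cells (ESCs) of the E14 Tg(Nkx2-5-EmGFP) line with a stably integrated short hairpin RNA against Baf60c, the SWI/SNF chromatin remodelling subunit encoded by Smarcd3, and control cells came from the same reporter line, for which the methods name the control plasmid pLKO. Both were virus-transduced, puromycin-selected pools, and the sources used here do not give which hairpin these libraries carried. All cells were differentiated by the same steps, with BMP4 protein added to the medium of the ESCs and again, with Activin A and VEGF, at the second aggregation, and were then sorted for Nkx2-5-driven GFP. The samples were therefore exposed to added BMP4, the hairpin was present from the ESC stage on, and only cells that had switched on the Nkx2-5 reporter were measured. The labels speak of ESC pools but do not say which library came from which, so the p-values reflect only how much these 4 libraries varied, and that variation could be technical.

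The libraries held 22064092 to 30398452 reads counted over transcripts, and 12623031 to 17649363 reads when 1 transcript per gene was kept. Smarcd3 had 46.4 and 46.3 RPKM in Baf60c KD, against 173.9 and 166.8 RPKM in control. The 6 CPC markers Nkx2-5, Isl1, Mef2c, Tbx5, Gata4 and Hand2 were present in all 4 libraries, at 17.0 RPKM or more. Of these 4 fell, and Gata4 and Hand2 rose. All 5 pluripotency markers lay below 0.54 RPKM and did not reach the filter on low values. Their summed level was 1.46 to 1.77 RPKM in Baf60c KD and 0.592 to 0.852 RPKM in control. All 5 cardiomyocyte markers fell, with a summed level of 2261 to 2318 RPKM in Baf60c KD and 5514 to 5684 RPKM in control. These counts of markers are read beside 36.1% higher and 18.2% lower among all genes tested by limma (adjusted p under 0.05). Among markers of other cell types, 3 of 7 endothelial genes rose and 4 fell (summed level 30.7 to 31.9 RPKM in Baf60c KD and 14.6 to 16.7 RPKM in control), 2 of the 4 epicardial genes with at least 0.5 RPKM in both groups rose (Wt1 and Tcf21 reached the filter only through Baf60c KD, and all 6 summed to 42.6 to 43.3 and 29.6 to 29.7 RPKM), 3 of 5 blood genes rose (20.9 to 21.9 and 5.98 to 6.37 RPKM), and 3 of 5 fibroblast genes rose and 1 fell (65.5 to 66.8 and 54.5 to 55.6 RPKM). Of 5 endoderm markers only Ttr passed the filter, and it fell to 1.45 and 1.49 RPKM in Baf60c KD, against 1.95 and 1.94 RPKM in control, while Cer1 was at 0 in all libraries. Within the endothelial sum, Tek alone gave 15.5 and 15.6 RPKM in Baf60c KD, against 2.13 and 1.86 RPKM in control. In bulk samples, fewer cells of a type and less RNA per cell cannot be told apart.

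BMPs are secreted dimers of the TGF-beta family. They bring together type I receptors such as Bmpr1a and type II receptors such as Bmpr2, whose kinases activate Smad1, Smad5 and Smad9, and these enter the nucleus with Smad4. Smad6 and Smad7 are inhibitory Smads and Bambi is a decoy receptor without a kinase, and all 3 are switched on by the pathway they restrain. BMP signals help to specify cardiac mesoderm and later shape the outflow tract, cushions and trabeculae.

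In Baf60c KD CPCs 2 of 5 ligand genes rose and 3 fell, 1 of 2 receptor genes fell slightly, and all 3 feedback inhibitors rose. Of the 10 genes 5 rose (Bmp4, Bmp7, Smad6, Smad7 and Bambi), 4 fell (Bmp2, Bmp5, Bmp10 and Bmpr1a) and Bmpr2 did not pass the test (limma on log2(RPKM + 1), Benjamini-Hochberg adjusted p under 0.05). Among all 11371 genes tested 36.1% rose and 18.2% fell, 54.3% together, so that passing the test was common in these libraries. The excess of rises depends on scaling, since with median-ratio scaling of the libraries 50.1% of the genes called were higher, in place of 66.4%. The median log2 fold change of the 10 genes was 0.03, beside 0.07 for all genes tested, and the median of its absolute value was 0.32, beside 0.16. The values of the 2 groups did not overlap for 9 of the 10 genes, beside 77.4% of all genes tested. Baf60c KD lay above control for 5 (49.6% of all genes) and below it for 4 (27.8%). The 10 genes were chosen with earlier results of these data known, so these comparisons with all genes are a description only. The thresholds of the study were a 1.5-fold change and p under 0.05 before adjustment, which the study applied to DESeq2 results. Read on the limma fit of log2(RPKM + 1) used here, Bmp10 alone passed them, beside 8.36% of all genes. Bmp2 (log2 fold change −0.583) passed them too with median-ratio scaling.

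**Figure D1:**
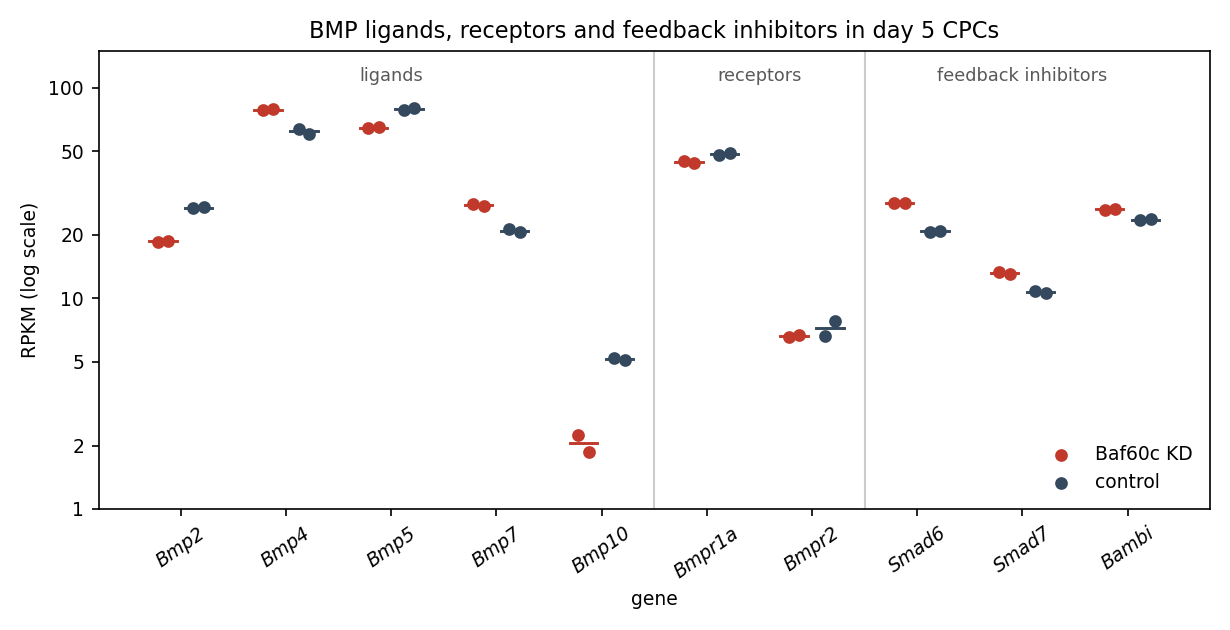
Level of each of the 10 genes in RPKM on a logarithmic axis, with 1 point per library, Baf60c KD (red) left of control (dark blue), and a line at each group's mean (n = 2 each). The groups do not overlap except at Bmpr2, Bmp10 lies lowest in both groups, and Bmp4 and Bmp5 lie highest.

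Bmp10, a ligand made by cardiomyocytes of the trabeculae and atria, changed most among the 10 genes. It had 2.23 and 1.87 RPKM in Baf60c KD, against 5.21 and 5.11 RPKM in control. Both Baf60c KD values lay below both control values, and the mean was 2.05 ± 0.258 RPKM in Baf60c KD and 5.16 ± 0.0716 RPKM in control (SD, n = 2 each), 2.52-fold lower. On the log2(RPKM + 1) scale the difference was −1.02 (SE 0.073, limma adjusted p = 3.14e-06), and 97.7% of the tested genes had an absolute change no larger than this. Bmp10 was also the least abundant of the 10 genes, with 67 and 75 reads in Baf60c KD and 160 and 149 reads in control. The cardiomyocyte markers moved in the same direction, Myh6 with 95.8 and 95.3 RPKM in Baf60c KD against 435.8 and 444.6 RPKM in control, and their part in the fall of Bmp10 was not tested. The 5 tested genes whose 4 values, after subtracting the control mean, lay nearest to those of Bmp10 were Chac1, Pth1r, Prkca, Rasd1 and Acsl1, at Euclidean distances of 0.039 to 0.081 on the log2(RPKM + 1) scale, with log2 fold changes of −1.06 to −0.98. They encode an enzyme of glutathione breakdown, a parathyroid hormone receptor, a protein kinase C, a small GTPase and a fatty acid-activating enzyme.

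The promoter of Bmp10 is shown because this gene had the largest change. The RefSeq sequence (GRCm38.p6, plus strand, chr6:87428744-87429003) covers 250 bases before and 10 bases after the transcription start, and capitals mark the motif AGATAA, known to be bound by GATA factors, at −219 and −33 from the start:
Bmp10: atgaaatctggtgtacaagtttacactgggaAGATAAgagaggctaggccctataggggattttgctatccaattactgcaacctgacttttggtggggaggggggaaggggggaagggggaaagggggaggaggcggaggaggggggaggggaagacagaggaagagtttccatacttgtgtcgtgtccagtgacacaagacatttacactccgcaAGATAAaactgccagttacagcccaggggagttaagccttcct
Promoters of the same window were at hand for 6 of the 10 genes, Bmp4, Bmp5, Bmp10, Bmpr1a, Bmpr2 and Smad6, and were searched on both strands for the Smad motifs GTCTAGAC and GGCGCC, the GATA motifs AGATAA and AGATAG and TGATAA and TGATAG, the Nkx2-5 motif TNAAGTG and the T-box motif AGGTGT. The first GATA motif was found in 10.3% of the 32851 promoters of the table, and among these 6 genes only in Bmp10. The other GATA motifs, in the order given, were held by 7.96%, 8.19% and 6.60% of all promoters, the Nkx2-5 motif by 10.4% and the T-box motif by 12.2%, and none of them occurred in these 6. No match overlapped another. GGCGCC occurred 1 time each in Bmpr1a and Bmpr2 (9.96% of all promoters), and Bmp4 and Bmp5 held none of the 8 motifs. A match describes these letters only and is not a binding site shown by these data.

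Bmp2, a ligand needed for early heart formation and for the endocardial cushions, fell as well. Its level was 18.6 and 18.8 RPKM in Baf60c KD, against 26.9 and 27.1 RPKM in control, so that it was 30.8% lower on the mean with a log2 fold change of −0.51 (SE 0.037, limma adjusted p = 3.17e-06). Both Baf60c KD libraries lay below both control libraries. Bmp5, another ligand of the early heart, had 64.2 and 64.8 RPKM in Baf60c KD, against 78.4 and 80.4 RPKM in control, an 18.8% lower level (log2 fold change −0.30, SE 0.030, limma adjusted p = 2.91e-05), again without overlap.

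Bmp4, a ligand of the second heart field and outflow tract and the closest relative of Bmp2, moved the other way. It had 78.4 and 78.9 RPKM in Baf60c KD, against 63.7 and 60.5 RPKM in control, which is 26.7% higher (log2 fold change 0.34, SE 0.033, limma adjusted p = 2.71e-05). The values do not include the BMP4 protein of the medium. The second Bmp4 transcript gave 79.8 and 80.5 RPKM in Baf60c KD and 64.8 and 61.5 RPKM in control. Bmp7, a ligand that forms dimers with Bmp2 or Bmp4, rose to 28.1 and 27.3 RPKM in Baf60c KD, against 21.4 and 20.6 RPKM in control (32.1% higher, log2 fold change 0.39, SE 0.039, limma adjusted p = 3.37e-05). For both genes each Baf60c KD library lay above each control library.

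Because RPKM is per length, the ligands could be added up within a library. The summed level of the 5 ligands was 191.6 and 191.7 RPKM in Baf60c KD, against 195.7 and 193.6 RPKM in control, 1.55% lower on the mean. Bmp4 took 40.9% and 41.2% of the sum in Baf60c KD, against 32.6% and 31.2% in control, and Bmp5 took 33.5% and 33.8%, against 40.1% and 41.5%. The most abundant ligand was therefore Bmp4 in Baf60c KD and Bmp5 in control, with a Bmp4 to Bmp5 ratio of 1.22 and 1.22 in Baf60c KD and 0.813 and 0.752 in control. The share of Bmp2 was 9.71% and 9.78% in Baf60c KD, against 13.7% and 14.0% in control. That of Bmp7 was 14.7% and 14.3% in Baf60c KD, against 10.95% and 10.6% in control, and that of Bmp10 was 1.17% and 0.974%, against 2.66% and 2.64%. An exact permutation test of 2 against 2 libraries cannot give a two-sided p below 0.333, so these sums and shares are given without a test. With median-ratio scaling of the libraries, which moved the median log2 fold change of all genes by −0.067, the ratio of the sums was 0.932 in place of 0.984, while the shares within a library do not depend on scaling.

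**Figure D2:**
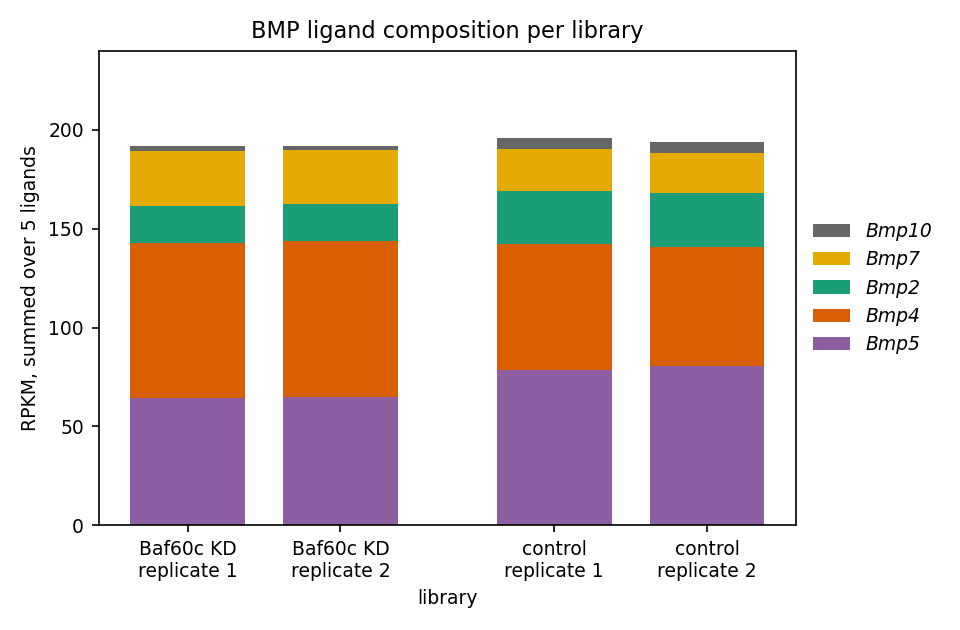
Stacked bars of RPKM for the 5 ligands in each library, Baf60c KD left of control. The bars are of near-equal height, 191.6 and 191.7 against 195.7 and 193.6 RPKM, and the Bmp4 part is larger and the Bmp5, Bmp2 and Bmp10 parts are smaller in Baf60c KD.

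The order of levels also differed in the middle of the range. In Baf60c KD the means ran from Bmp4 (78.7 RPKM) through Bmp5 (64.5), Bmpr1a (44.5), Smad6 (28.4), Bmp7 (27.7), Bambi (26.4), Bmp2 (18.7), Smad7 (13.2) and Bmpr2 (6.63) to Bmp10 (2.05 RPKM). In control they ran from Bmp5 (79.4 RPKM) through Bmp4 (62.1), Bmpr1a (48.4), Bmp2 (27.0), Bambi (23.6), Bmp7 (21.0), Smad6 (20.9), Smad7 (10.7) and Bmpr2 (7.196) to Bmp10 (5.16 RPKM). Bmp2 thus had rank 7 in Baf60c KD and rank 4 in control. The library values of Bmp7 and Smad6 overlapped in control, and no other neighbours in either order did. Among all tested genes the control levels of Bmp5 and Bmp4 were at percentiles 96.9 and 95.7, and that of Bmp10 was at 36.8.

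Neither receptor gene changed by more than 10% on the mean. Bmpr1a, the main type I BMP receptor of the early heart, had 44.9 and 44.2 RPKM in Baf60c KD, against 47.8 and 49.0 RPKM in control, 7.91% lower (log2 fold change −0.12, SE 0.033, limma adjusted p = 0.0136). The call was lost without Baf60c KD replicate 2 (limma adjusted p = 0.0925, range over 12 alternatives 2.68e-06 to 0.0925). Bmpr2 had 6.54 and 6.72 RPKM in Baf60c KD, against 6.59 and 7.80 RPKM in control, and the groups overlapped (log2 fold change −0.10, 95% interval −0.26 to 0.06, limma adjusted p = 0.262). Control replicate 2 was the highest of these 4 values. Without control replicate 1 Bmpr2 passed as lower (limma adjusted p = 0.0138), without control replicate 2 its log2 fold change was 0.0071, and the adjusted p ranged from 0.00374 to 0.936 over 12 alternatives. Bmpr1a made up 86.7% and 86.6% of the summed RPKM of the type I receptors Bmpr1a, Acvr1 and Bmpr1b in Baf60c KD, against 89.4% and 88.2% in control, and Bmpr2 made up 23.1% and 24.2% of the type II receptors Bmpr2, Acvr2a and Acvr2b, against 22.4% and 26.01%.

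All 3 feedback inhibitors rose, in the order Smad6, Smad7 and Bambi. Smad6, which blocks BMP-activated Smads, had 28.5 and 28.3 RPKM in Baf60c KD, against 20.8 and 21.0 RPKM in control, a 35.9% higher level and the largest rise of the 10 genes (log2 fold change 0.43, SE 0.036, limma adjusted p = 9.56e-06). Smad7, which restrains both BMP and TGF-beta receptors, had 13.3 and 13.1 RPKM in Baf60c KD, against 10.8 and 10.6 RPKM in control, 22.7% higher (log2 fold change 0.27, SE 0.044, limma adjusted p = 0.000631). Bambi had 26.4 and 26.5 RPKM in Baf60c KD, against 23.4 and 23.8 RPKM in control, 11.9% higher (log2 fold change 0.16, SE 0.036, limma adjusted p = 0.00505). For each of these genes both Baf60c KD libraries lay above both control libraries. The call of Bambi was lost with median-ratio scaling (log2 fold change 0.08, limma adjusted p = 0.0928, range over 12 alternatives 0.000125 to 0.0928), and Smad6 and Smad7 passed in all 12 alternatives. The inhibitory Smads together reached 41.8 and 41.4 RPKM in Baf60c KD, against 31.6 and 31.6 RPKM in control. Smad6 is also active in endothelium. Of the 7 endothelial markers Tek (15.5 and 15.6 RPKM in Baf60c KD, against 2.13 and 1.86 RPKM in control), Kdr and Pecam1 rose and Cdh5, Tie1, Esam and Plvap fell, and none was at 0. Their part in the rise of Smad6 was not tested.

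The promoter of Smad6 is shown because this gene rose most among the 10 and is a direct target of BMP Smads. In the same window (RefSeq, GRCm38.p6, minus strand, chr9:64022050-64022309) capitals mark the palindromic Smad motif GTCTAGAC, which begins at −4 from the start and runs across it:
Smad6: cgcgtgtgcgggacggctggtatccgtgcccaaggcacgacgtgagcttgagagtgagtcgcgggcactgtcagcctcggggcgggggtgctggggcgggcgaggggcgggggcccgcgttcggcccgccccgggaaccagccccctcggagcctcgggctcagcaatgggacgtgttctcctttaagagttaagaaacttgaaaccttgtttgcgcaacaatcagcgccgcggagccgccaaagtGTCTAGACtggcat
This motif was found in 0.177% of the 32851 promoters, 58 in all, and among the 6 genes with a sequence only in Smad6. None of the other 7 motifs was found in this window of Smad6. Here too a match describes these letters only, and its part in the rise of Smad6 was not tested.

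The wider pathway was read from a list of 55 further genes, chosen with earlier results of these data known. Of the list 38 passed the filter on low values and 17 did not, 5 of them at 0 in all libraries. Of the 38 genes 3, Gdf6, Bmp6 and Fstl3, lay under 0.5 RPKM in control and met the minimum only because of Baf60c KD. Their values are given as a description, and they are left out of the counts that follow, a choice made after seeing the data. Of the 35 genes with at least 0.5 RPKM in both groups 18 rose, 6 fell and 11 did not pass (limma, adjusted p under 0.05), with a median log2 fold change of 0.14. Among all 11086 genes that met the same minimum in both groups 35.8% rose and 18.0% fell, with a median of 0.07. The 4 of these 35 genes that passed the test with an absolute log2 fold change over 0.58 were Msx1 (1.14), Bmper (0.93), Atoh8 (0.81) and Hand1 (0.63). Further genes of the list were named after their values were seen.

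**Figure D3:**
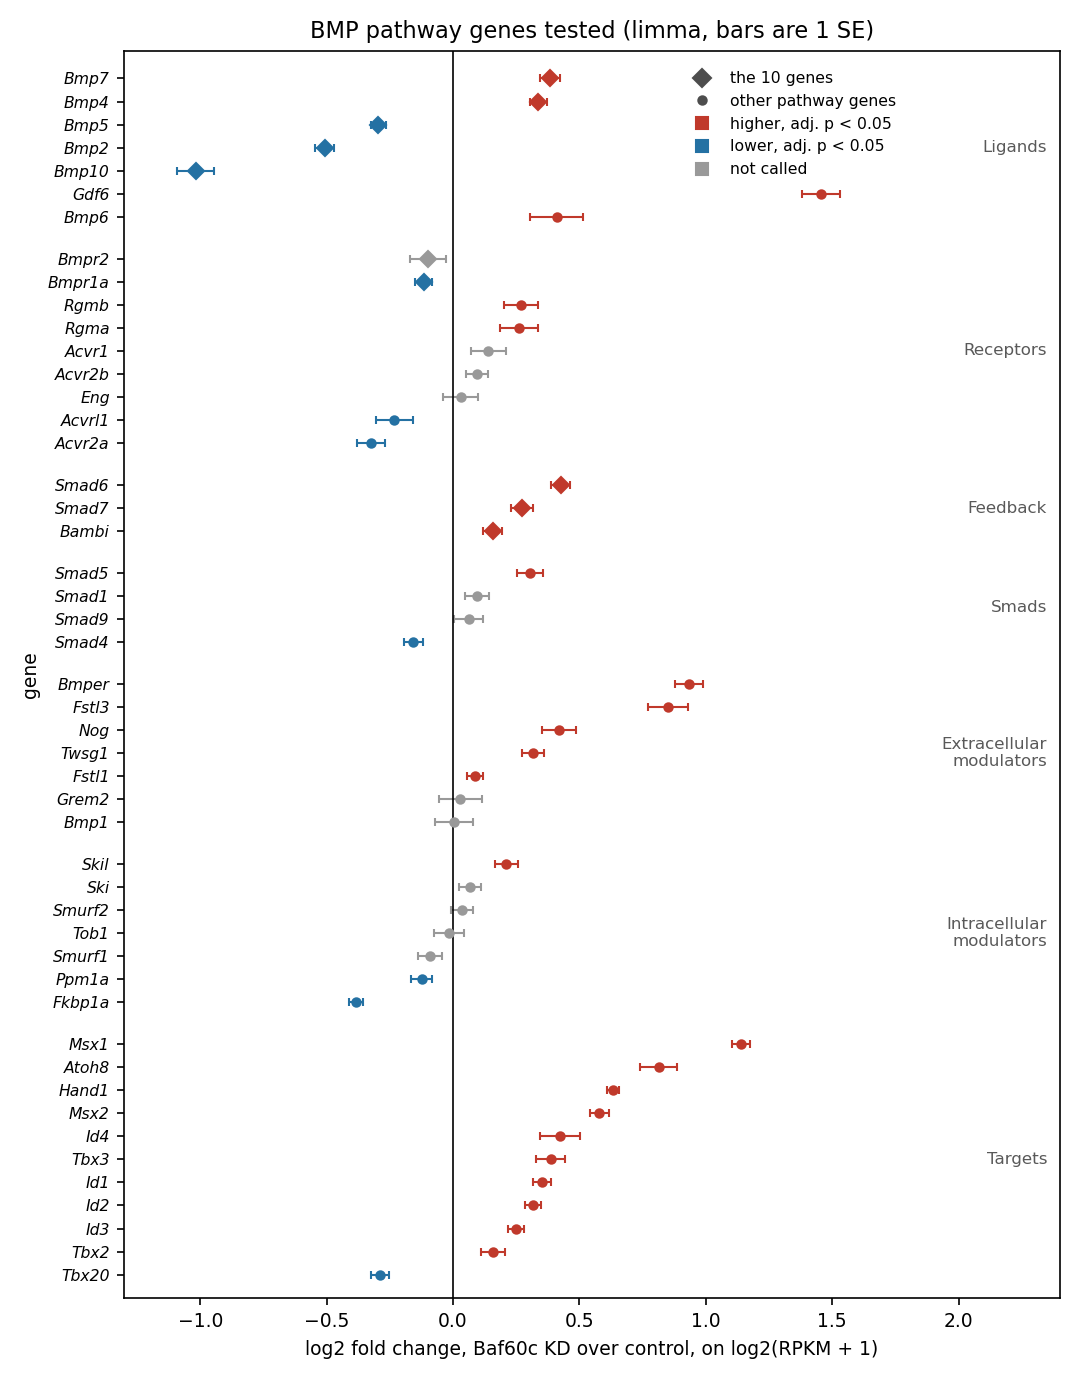
Log2 fold change of Baf60c KD over control on the log2(RPKM + 1) scale for the 10 genes (diamonds) and the 38 further pathway genes tested (circles), by role, with bars of 1 SE (limma, 2 libraries each). Red marks genes called higher, blue genes called lower and grey genes not called, and Gdf6, Bmp6 and Fstl3 reached the filter only through Baf60c KD. Targets lie right of 0 except Tbx20, and Bmp10 lies farthest left.

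Of the 8 other ligand genes only Gdf6 and Bmp6 reached the filter, both through Baf60c KD. Gdf6, a BMP-type ligand, had 2.22 and 2.16 RPKM in Baf60c KD (178 and 232 reads), against 0.159 and 0.167 RPKM in control (13 and 13 reads). That is a 13.5-fold ratio of mean RPKM, which a log2 fold change of 1.46 on the log2(RPKM + 1) scale understates. Bmp6 had 0.619 and 0.980 RPKM in Baf60c KD, against 0.303 and 0.395 RPKM in control. Beside the summed level of the 5 ligands above, both remained minor in all libraries.

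Other receptors moved in both directions. Mean RPKM in Baf60c KD was 33.7% higher for Rgma, 29.3% higher for Rgmb, 23.9% lower for Acvrl1 and 22.3% lower for Acvr2a. Acvr2a, a type II receptor shared with activins, fell to 7.40 and 7.29 RPKM in Baf60c KD, against 9.85 and 9.07 RPKM in control (log2 fold change −0.32, limma adjusted p = 0.000785). The endothelial type I receptor Acvrl1 fell by 0.23 on the log2 scale (limma adjusted p = 0.0217), a call lost without Baf60c KD replicate 1 or 2 and without control replicate 2, and the co-receptors Rgma and Rgmb rose by 0.26 and 0.27. The call of Rgma was lost without Baf60c KD replicate 1 or control replicate 2, and that of Rgmb without Baf60c KD replicate 2. Acvr1, Acvr2b and Eng did not pass, although Acvr2b passed as higher with voom (log2 fold change 0.08, limma-voom adjusted p = 0.0319). The log2 fold change of Acvr1 was 0.14 with all libraries and 0.24 without control replicate 2. Among the Smads that carry the signal, Smad5 rose to 9.22 and 9.67 RPKM in Baf60c KD, against 7.32 and 7.60 RPKM in control (log2 fold change 0.30, limma adjusted p = 0.000838), and the shared partner Smad4 fell to 37.4 and 35.9 RPKM, against 41.8 and 40.1 RPKM in control (log2 fold change −0.16, limma adjusted p = 0.00588). Smad1 and Smad9 did not pass, and the summed level of Smad1, Smad5 and Smad9 was 25.7 and 26.3 RPKM in Baf60c KD, against 23.4 and 22.7 RPKM in control.

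Of 16 extracellular modulators 6 had at least 0.5 RPKM in both groups, of which 4 rose and 2 did not pass, beside 35.8% higher among all genes at that minimum. Bmper, a secreted protein that binds BMPs, had 7.11 and 6.93 RPKM in Baf60c KD, against 3.25 and 3.15 RPKM in control, a 2.20-fold higher level (log2 fold change 0.93, limma adjusted p = 9.8e-07). The secreted antagonist Nog had 7.89 and 7.15 RPKM in Baf60c KD, against 5.67 and 5.08 RPKM in control (log2 fold change 0.42). Fstl3, which binds activins and BMPs, had 1.56 and 1.67 RPKM in Baf60c KD, against 0.509 and 0.396 RPKM in control, a 3.58-fold ratio that is a description only. Twsg1 rose by 0.32 on the log2 scale, and Fstl1 (0.09) was at the threshold (limma adjusted p = 0.0493) and lost its call in 7 of 12 alternatives. Inside the cell, Skil, a repressor of Smad activity, rose by 0.21. Fkbp1a, which holds type I receptors inactive, fell to 107.5 and 110.5 RPKM in Baf60c KD, against 141.3 and 143.8 RPKM in control (−0.38). The Smad phosphatase Ppm1a fell by 0.12, a call lost without Baf60c KD replicate 1, without control replicate 1 and with no filter. Smurf1, Smurf2, Ski and Tob1 did not pass. Smurf1 did pass as lower with median-ratio scaling (log2 fold change −0.17, limma adjusted p = 0.0158) and with voom (−0.12, limma-voom adjusted p = 0.00782).

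Of the 11 target genes 10 rose and 1 fell, with a median log2 fold change of 0.39, beside 36.1% higher, 18.2% lower and a median of 0.07 among all genes tested. The list of targets was chosen with earlier results of these data known, so this count is a description only. Id1 had 59.6 and 56.3 RPKM in Baf60c KD, against 44.9 and 45.5 RPKM in control, Id2 had 82.0 and 82.3 RPKM, against 64.2 and 67.3 RPKM, and Id3 had 126.2 and 119.9 RPKM, against 103.5 and 103.1 RPKM. These inhibitors of basic helix-loop-helix factors were 28.2%, 24.9% and 19.1% higher on the mean. The homeobox gene Msx1 had 39.5 and 38.9 RPKM in Baf60c KD, against 17.2 and 17.3 RPKM in control (log2 fold change 1.14), Msx2 rose by 0.58 (just under the limit before rounding), Hand1, a factor of the early ventricle, by 0.63 and Atoh8 by 0.81. The target that fell was the cardiac T-box factor Tbx20, with 44.6 and 46.9 RPKM in Baf60c KD, against 55.3 and 56.7 RPKM in control (log2 fold change −0.29, limma adjusted p = 0.000126). Tbx2 (0.16) lost its call with median-ratio scaling and without control replicate 2. All of these genes have regulators other than BMP, and Smad activity was not measured in these libraries.

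In the mm9 build the 10 genes lie on 6 chromosomes. Exons of Bmp4 (chromosome 14, 47003195 to 47010344, minus strand), Bmp5 (chromosome 9, 75623171 to 75748117, plus strand) and Bmpr1a (chromosome 14, 35223920 to 35316527, minus strand) share bases with annotated genes on the opposite strand, Gm15217, Gm16662 and Gm17110. Since reads of both strands were counted, reads of such partners cannot be told apart from those of the BMP gene. Exons of Bmp2 (chromosome 2, 133377895 to 133388621, plus strand), Bmp7 (chromosome 2, 172693513 to 172765822, minus strand), Bmp10 (chromosome 6, 87378996 to 87384506, plus strand), Bmpr2 (chromosome 1, 59821481 to 59927703, plus strand), Smad6 (chromosome 9, 63800953 to 63869866, minus strand), Smad7 (chromosome 18, 75527183 to 75555589, plus strand) and Bambi (chromosome 18, 3507955 to 3516402, plus strand) share none. Of the further pathway genes named above, those of Bmp6, Acvrl1, Acvr2a, Rgma, Fstl3 and Eng, and beside them Prkca and Smarcd3, also share exon bases with another gene. The cell type markers were not searched for such overlaps.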

How the data were processed

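RNA-Seq libraries of sorted day 5 CPCs were made with a stranded mRNA kit. The authors mapped reads with STAR to mm9, counted them over exons of RefSeq transcripts with HOMER without regard to strand, and deposited RPKM computed with edgeR (versions not given in the sources used here). Further deposited columns hold the authors' DESeq2 output (a log2 fold change, a p-value and a mean signal of normalised reads), which were not used, and transcript lengths. The first 31507 of the table's 35707 rows were used, since the last 4200 rows had been scaled to another total. RPKM multiplied by length and library total gave whole reads for 100% of values (tolerance 0.001 reads).

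For each of 20701 gene symbols 1 transcript row was kept. Genes with a mean of at least 0.5 RPKM were tested with limma (version 3.58.1, R 4.3.3) on log2(RPKM + 1), with a trended robust variance prior, no covariate, and p-values adjusted by Benjamini-Hochberg across the 11371 genes. This scale understates changes of low genes. The code was tested on simulated data. Replicates differed by more than counting noise (chi-square per degree of freedom 1.16 in Baf60c KD and 1.49 in control). The members and gene lists were chosen with earlier results of these data known. Named pathway genes were those called with an absolute log2 fold change over 0.58, and further genes of the list that were named after their values were seen. Alternatives were another pseudocount, other filters, scaling, transcripts, voom, a replicate block, leaving out each library and, chosen after seeing the data, counting only genes with at least 0.5 RPKM in both groups. Gene coordinates are from GENCODE vM1 on mm9, and promoters from a RefSeq table on GRCm38.p6.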

Additional observations from a re-analysis of the deposited data

How the results depend on the processing

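The counts of the 10 genes called higher (5) and lower (4) stayed between 4 and 5 and between 3 and 5 over 12 alternatives, and Msx1, Bmper, Atoh8 and Hand1 and the 5 genes nearest to Bmp10 kept direction and call in all of them. These pathway genes and neighbours were picked by their values in the same libraries, so their stability was largely set by that choice. The log2 fold change of Bmpr2 was 0.0071 without control replicate 2 and −0.21 without control replicate 1. With median-ratio size factors 2 members in place of 1 passed the thresholds of the study, Bmp2 (−0.58) beside Bmp10, the ratio of summed ligand RPKM was 0.932 in place of 0.984, and of all genes called 50.1% were higher in place of 66.4%. Over all 38 pathway genes tested, 3 of which reached the filter only through Baf60c KD, leaving out a library gave 18 to 20 higher and 4 to 6 lower, against 21 and 6 with all libraries. The replicate numbers of the labels are not stated to pair the libraries, and the deviations of same-numbered libraries had a correlation of 0.024 across genes, which are not independent replicates. With a replicate block 6166 genes were called, against 6175, and no call of a member changed. The planned count models of edgeR and DESeq2 were not run, because the deposited unit is RPKM, and voom was run on the recovered reads. Bmp10 had the fewest reads of the 10 genes, 67 and 75 in Baf60c KD, and 2 libraries per group limit what is known of the spread.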
